A study of Homo sapiens with 4 samples.

Results

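Long noncoding RNAs named by a LINC number, or by the suffix AS or IT after the symbol of a protein-coding neighbour, were followed in HGC27, a human gastric cancer cell line, after knockdown of AARS1. The members were chosen by symbol alone. Of the 14431 genes in the deposited expression table, 267 carried such a symbol, of which 70 were LINC genes, 195 were antisense (AS) genes and 2 were intronic (IT) genes. RNA-seq of total RNA was available for 4 libraries, with 2 of cells labelled as AARS1 knockdown by small interfering RNA (siAARS1) and 2 of control cells labelled WT. All 4 cultures were kept in glucose-free DMEM with exogenous lactate at 25 mM, which the labels give as 24 h of stimulation while the text of the study gives another duration, so the time under lactate was uncertain. The labels did not state that the libraries came from separate cultures, so p-values measure only the spread between these libraries.

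LINC is the provisional name for a long noncoding RNA transcribed from between protein-coding genes. An AS gene runs against a protein-coding (sense) gene, either across its body or outward from a start site that the pair shares, and an IT gene lies within an intron of its host. Such RNAs are mostly low in abundance and spliced. Many are trimmed or degraded in the nucleus by the RNA exosome and its adaptors, while a few, such as NORAD, are abundant in the cytoplasm. AARS1 charges tRNA with alanine and was studied here as an enzyme that attaches lactate to proteins, with YAP and its DNA-binding partner TEAD as the pathway of interest.

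Values are CPM, read counts scaled to the size of the library, and 1 read was worth 0.0293 to 0.0324 CPM. The libraries held 30653210 to 33522573 reads in the listed genes. AARS1, listed as AARS, checked the labels. It stood at 428 and 417 CPM in controls against 292 and 298 CPM after siAARS1 (log2 fold change -0.52, and -0.28 with a correction for transcript GC content and length). As to the cell type, the mesenchymal gene VIM was at 4600 to 5131 CPM. The epithelial keratin KRT8 was at 24.8 and 25.2 CPM in controls and at 6.61 and 5.08 CPM after siAARS1, and CDH1 stayed at or below 2.55 CPM. Of 2 fibroblast-associated genes, COL1A2 fell from 128 and 131 CPM to 60.7 and 61.9 CPM. DCN was at 239 and 250 CPM in controls and at 258 and 270 CPM after siAARS1 (log2 fold change 0.11), with the direction turned by the correction (-1.21) and by median scaling (-0.12). The part of these markers in the results was not tested. KRT18, KRT19, EPCAM, PTPRC and PECAM1 were not among the genes analysed here. In bulk samples, fewer cells of a type and less RNA per cell cannot be told apart.

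About as many LINC and antisense RNAs passed the test as did not, and more of them fell than rose. Of the 267 members, 258 passed the filter of a mean of 1 CPM in at least 1 group, and 132 of those (51.2%) changed at an adjusted p under 0.05 by limma, beside 70.7% of all 14199 genes tested. Of these, 47 rose (18.2%, beside 32.6% of all genes) and 85 fell (32.9%, beside 38.0%). At least a 2-fold change was reached by 9 members (3.49%, beside 12.3%), with 8 higher and 1 lower in siAARS1. By edgeR with TMM, without the pseudocount of 1, the number was 27 (10.5%, beside 16.9% of all genes). Both siAARS1 libraries lay outside the range of both controls for 205 members (79.5%, beside 85.1% of all genes). Without siAARS1 replicate 2, the members called higher numbered 30. The median log2 fold change was -0.13 over the members and -0.05 over all genes, and the members spanned -1.30 to 1.96. When each library was scaled to its median gene, the median of all genes moved to -0.27. The same threshold then gave 25 members higher and 135 lower, with 11417 of all 14199 genes called. Of called members 15.6% were then higher, compared with 35.6% at the deposited scale, where the share over all called genes was 46.2%.

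The members were expressed at low levels, and the level moved with the share called. Their median was 3.43 CPM, compared with 23.9 CPM over all listed genes. Per kilobase of the longest annotated transcript, a scale that allows levels of different genes to be compared, the medians were 1.54 and 6.36 CPM per kb. No member was at 0 in any library, and genes at or below 1 CPM in every library were not analysed here. Among members at a mean of 5 CPM or more in 1 group, 79 of 123 were called (64.2%), beside 76.0% of all genes at that level. Below 5 CPM, 53 of 135 members were called (39.3%), beside 46.8% of all genes at that level. The 9 members that were not tested had between 0.221 and 1.29 CPM in every library.

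Among LINC genes, 35 of 70 changed (50.0%, beside 70.7% of all genes), with 16 higher (22.9%, beside 32.6%) and 19 lower (27.1%, beside 38.0%). Among antisense genes, 95 of 186 tested changed (51.1%), with 30 higher (16.1%) and 65 lower (34.9%). Of the 2 intronic genes, SOS1-IT1 rose from 0.147 and 0.189 CPM to 1.04 and 0.993 CPM. Below the filter in both controls, it passed only through the siAARS1 group and so could be tested only as a rise. CRHR1-IT1 fell from 19.4 and 21.1 CPM to 13.7 and 12.3 CPM. The genes in the names of these 2 moved the same way, with a log2 fold change of 1.91 for SOS1, a Ras exchange factor, and -1.34 for CRHR1, a receptor of corticotropin-releasing hormone. By the annotation, SOS1-IT1 (chr2:38992279-38993857, minus strand) lies within SOS1 on the same strand, where reads of unspliced SOS1 RNA cannot be told apart from it. CRHR1-IT1 (chr17:45620328-45655156, plus strand), now LINC02210, lies outside CRHR1 on the same strand. The summed CPM of all 267 members was 3667 and 3578 in controls and 3421 and 3478 after siAARS1, and without the most abundant member, C17orf76-AS1, it was 2290 and 2294 against 2256 and 2312. Without that gene the groups overlapped.

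**Figure D1:**
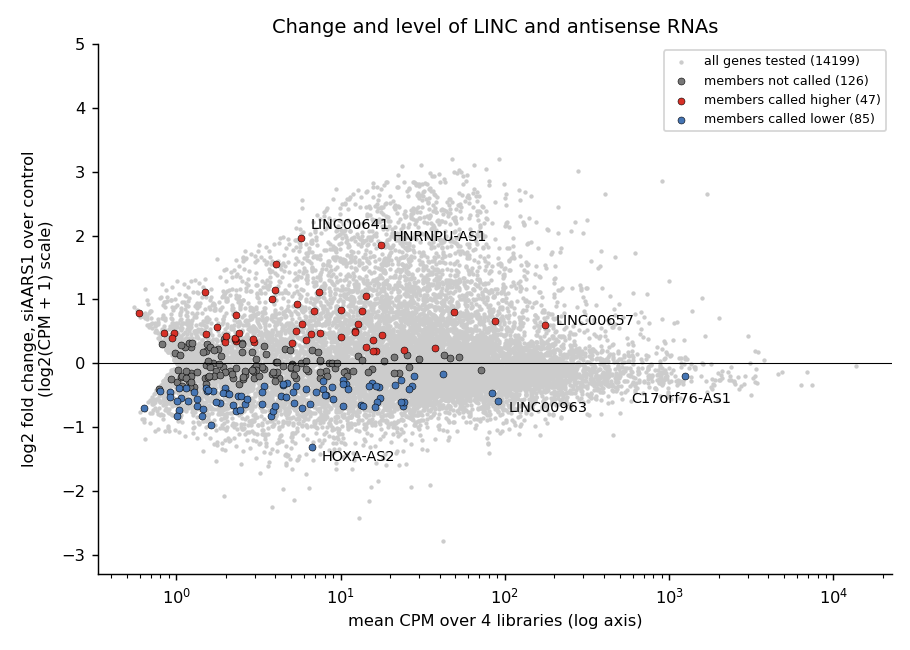
Each point is a gene, with its mean CPM over 4 libraries on a log axis and its log2 fold change (siAARS1 over control, log2(CPM + 1) scale) on the vertical axis. Grey points are all 14199 genes tested and coloured points the 258 members tested, of which 47 were called higher and 85 lower. Members sit mostly at the low end of the level axis and between -1.30 and 1.96.

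Among members that reached 3 CPM in the higher group, the largest rises were those of intergenic and antisense RNAs of a few CPM. LINC00641 (chr14:21200079-21206900, minus strand, GRCh38) had 2.14 and 1.42 CPM in controls against 9.78 and 9.72 CPM after siAARS1, a rise of 1.96 ± 0.14 on the log2 scale (SE; n = 2 per group; adjusted p = 3.4e-11 by limma). HNRNPU-AS1, named for the gene of a nuclear matrix protein that binds RNA, had 6.54 and 7.63 CPM in controls and 25.2 and 31.4 CPM after siAARS1. Controls and siAARS1 libraries were thus far apart for both genes, and the 2 libraries of each group differed by less than the groups did. HNRNPU-AS1 was without an entry of its own in the annotation used here, and RefSeq lists its symbol as a synonym of HNRNPU, so reads of both genes may be mixed.

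LINC00342 rose from 1.67 and 1.45 CPM to 6.09 and 6.95 CPM (log2 fold change 1.55 ± 0.14, SE). CERS6-AS1, which runs against the ceramide synthase gene CERS6, rose from 1.73 and 2.52 CPM to 6.28 and 5.44 CPM (1.14 ± 0.15). SH3BP5-AS1 rose from 4.05 and 4.60 CPM to 10.5 and 10.5 CPM (1.11 ± 0.11). These 3 genes were at or below 4.60 CPM in every control library and above 5 CPM in every siAARS1 library. THAP9-AS1, beside a gene derived from a DNA transposase, rose from 9.50 and 8.54 CPM to 18.9 and 20.5 CPM (1.05 ± 0.09). STARD4-AS1, beside a gene of cholesterol transport, rose from 1.85 and 2.62 CPM to 5.60 and 5.29 CPM (1.01 ± 0.14), and LINC00669, now MIR924HG, rose from 3.49 and 3.37 CPM to 6.54 and 8.42 CPM (0.93 ± 0.13). Of these 8 genes, HNRNPU-AS1 could not be corrected for transcript GC content and length. The other 7 stayed higher with that correction, with log2 fold changes from 0.40 to 1.34.

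The largest fall of any member was that of HOXA-AS2 (chr7:27107777-27134302, plus strand), an antisense RNA of the HOXA cluster of homeobox genes, which set position along the body axis. It had 9.53 and 10.4 CPM in controls and 3.14 and 3.76 CPM after siAARS1, which came to -1.30 ± 0.12 on the log2 scale (SE; adjusted p = 3.4e-09 by limma). It was the 1 member that fell at least 2-fold on the log2(CPM + 1) scale, and the groups lay far apart. With the correction for GC content and length the log2 fold change was -1.06.

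Among members whose controls reached 3 CPM, DICER1-AS1 fell from 5.10 and 5.04 CPM to 3.04 and 1.93 CPM (log2 fold change -0.82 ± 0.15, SE). LINC00898 fell from 3.14 and 3.18 CPM to 1.3 and 1.65 CPM (-0.75 ± 0.15), and MAP3K14-AS1, beside the gene of the kinase NIK, from 5.19 and 5.04 CPM to 2.36 and 2.92 CPM (-0.75 ± 0.13). SNAI3-AS1, beside a gene of the Snail family, fell from 3.46 and 3.15 CPM to 1.65 and 1.56 CPM (-0.72 ± 0.14). In these 4 genes the control libraries agreed closely and every siAARS1 value was lower. HHIP-AS1, beside the gene of a Hedgehog-binding protein, fell from 7.10 and 7.72 CPM to 4.05 and 4.36 CPM (-0.69 ± 0.12). LINC01003 fell from 21.4 and 19.0 CPM to 12.3 and 12.0 CPM (-0.69 ± 0.09), and PSMG3-AS1, beside the gene of a proteasome assembly chaperone, from 13.2 and 12.6 CPM to 6.70 and 8.90 CPM (-0.67 ± 0.11). All 8 stayed lower with the correction for GC content and length, from -0.34 to -1.06.

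**Figure D2:**
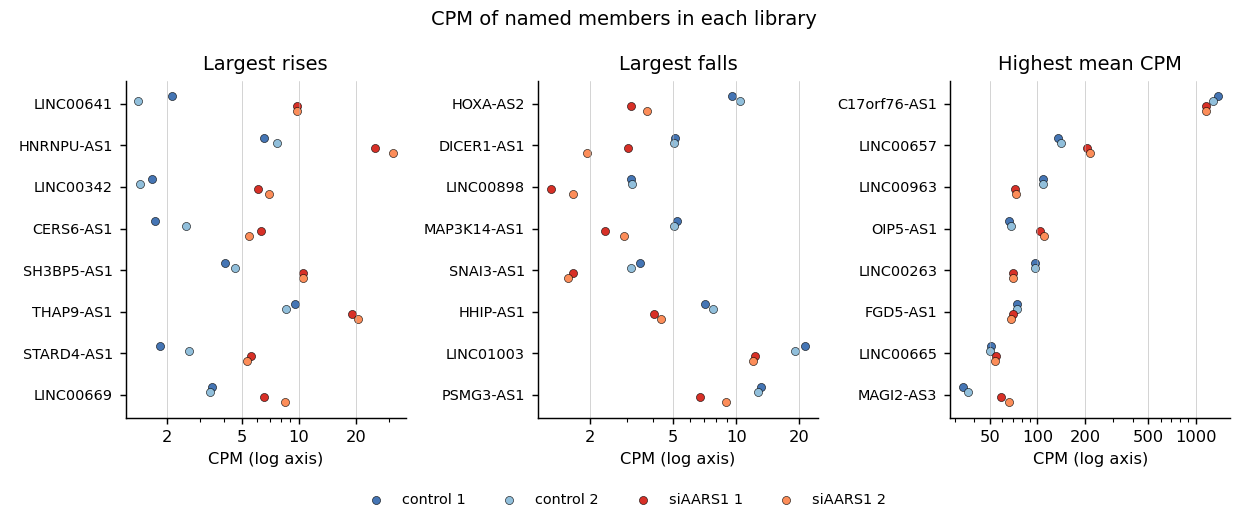
CPM in each library (log axes) for the 8 members with the largest rise and the 8 with the largest fall among those whose higher group reached 3 CPM, and the 8 with the highest mean CPM, with controls in blue and siAARS1 libraries in red. In each row of the first panels the groups are apart, from 2.14 and 1.42 CPM against 9.78 and 9.72 CPM in LINC00641 to 13.2 and 12.6 CPM against 6.70 and 8.90 CPM in PSMG3-AS1.

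The most abundant member, C17orf76-AS1 (chr17:16438822-16478678, plus strand), is now called SNHG29 and is a host of small nucleolar RNAs. It had 1377 and 1284 CPM in controls and 1165 and 1166 CPM after siAARS1, which came to -0.19 ± 0.04 on the log2 scale (SE; adjusted p = 1.0e-04 by limma), or -0.10 with the correction for GC content and length and -0.43 under median scaling. At 751 CPM per kb it stood far above the next member on that scale, LINC00998 at 39.9 CPM per kb.

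LINC00657, or NORAD, is a cytoplasmic RNA that binds Pumilio proteins and keeps chromosomes stable. It rose from 136 and 141 CPM to 206 and 216 CPM (log2 fold change 0.60 ± 0.04, SE; limma adjusted p = 1.8e-11). OIP5-AS1, also known as Cyrano, which binds the microRNA miR-7, rose from 66.0 and 68.2 CPM to 103 and 110 CPM (0.66 ± 0.05). MAGI2-AS3 rose from 33.8 and 36.5 CPM to 59.3 and 65.8 CPM (0.81 ± 0.06). For these 3 abundant genes every siAARS1 library exceeded both controls by far more than the replicates differed. Their transcripts were long and low in GC, with GC contents of 41.6%, 38.4% and 34.0%. With the correction for GC content and length the direction turned, to log2 fold changes of -0.12, -0.73 and -0.75 in the same order.

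Among the other abundant members, LINC00963 fell from 109 and 109 CPM to 71.9 and 73.2 CPM (log2 fold change -0.58 ± 0.04, SE). LINC00263, or OLMALINC, a transcript named for oligodendrocyte maturation, fell from 97.2 and 96.4 CPM to 70.2 and 70.2 CPM (-0.46 ± 0.05). Both falls remained with the correction, at -0.49 and -0.56. FGD5-AS1, at 74.0 and 74.2 against 69.9 and 68.4 CPM, did not pass the test (-0.10, limma adjusted p = 0.067) but passed with the correction (-0.49), median scaling (-0.33) and quantile normalization (-0.18). LINC00665, at 50.7 and 50.5 against 54.9 and 54.1 CPM, did not pass either (0.11, limma adjusted p = 0.074). It was called higher with the correction (0.26) and by edgeR (0.15 to 0.16), while it was called lower under median scaling (-0.13) and the value was -0.02 under quantile normalization.

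The start regions of these genes were read from RefSeq windows on GRCh38.p14, each holding the 250 bases before and 50 after a transcription start, 5′ to 3′ on the strand of the gene. Windows were found for 203 of the 267 members. They were searched on both strands for GGAATG, which reads CATTCC on the other strand, the core of the element that TEAD proteins bind, because TEAD is the pathway of the study. Of the members' 262 windows, 23 (8.78%) held it, beside 4907 of all 34943 windows (14.0%). The share was 16.2% (6 of 37 windows) for members called higher, 5.68% (5 of 88) for members called lower and 8.76% (12 of 137) for all other members, whether tested or not. The members' windows had a higher median GC content than all windows, 64.3% against 58.7%. The median was 60.5% for members called higher, 71% for members called lower and 63.2% for all other members. The part of base composition in these shares was not tested. The windows of the largest fall, of the most abundant RNA that rose and of the largest rise are shown, with any match in capitals. HOXA-AS2 (chr7:27121669-27121968, plus strand) held 1 match, LINC00657 (chr20:36050911-36051210, minus strand) held 2 side by side, and LINC00641 (chr14:21206851-21207150, minus strand) held none. The RefSeq start of HOXA-AS2, 27121919, lies inside the GENCODE v29 interval given above for this gene and not at the start of that interval. A match here is a run of letters and not a measured binding site.
HOXA-AS2: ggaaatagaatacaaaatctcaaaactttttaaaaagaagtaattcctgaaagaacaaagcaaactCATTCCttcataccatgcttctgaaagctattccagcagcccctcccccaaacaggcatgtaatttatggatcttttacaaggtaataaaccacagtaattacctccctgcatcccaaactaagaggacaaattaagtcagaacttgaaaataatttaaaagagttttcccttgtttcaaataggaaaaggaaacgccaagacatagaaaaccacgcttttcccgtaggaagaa
LINC00657: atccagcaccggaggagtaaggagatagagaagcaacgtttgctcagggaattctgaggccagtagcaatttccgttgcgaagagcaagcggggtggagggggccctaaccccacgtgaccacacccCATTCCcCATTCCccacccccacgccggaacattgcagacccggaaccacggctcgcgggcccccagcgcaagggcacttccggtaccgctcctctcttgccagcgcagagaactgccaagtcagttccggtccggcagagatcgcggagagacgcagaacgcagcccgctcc
LINC00641: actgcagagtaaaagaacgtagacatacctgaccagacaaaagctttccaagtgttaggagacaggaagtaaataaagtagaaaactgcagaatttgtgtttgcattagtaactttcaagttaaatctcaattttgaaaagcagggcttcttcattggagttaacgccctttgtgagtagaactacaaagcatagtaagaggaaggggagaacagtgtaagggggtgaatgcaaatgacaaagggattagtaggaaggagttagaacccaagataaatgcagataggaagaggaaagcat

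Antisense RNAs were then compared with the sense gene in their name. Of the 197 AS and IT members, 180 had the sense gene in the table, and 171 pairs had both rows tested, with 169 distinct sense genes. The antisense row was the lower of the pair in mean CPM in 150 of 171 pairs, with medians of 3.84 CPM for antisense and 37.3 CPM for sense rows. Of the sense genes, 131 of 169 changed (77.5%, beside 70.7% of all genes), with 66 higher and 65 lower. Both rows were called in 70 pairs, in the same direction in 43 (18 both higher, 25 both lower) and in opposite directions in 27. With a correction for transcript GC content and length the balance turned, to 28 pairs in the same direction and 31 in opposite directions. In 22 of the 27 the antisense RNA fell while the sense gene rose, and in 5 the reverse was found. Only the antisense row was called in 17 pairs, only the sense row in 63, and neither in 21. The rank correlation of the 2 log2 fold changes across the 171 pairs was 0.11, a description across genes measured in the same 4 libraries. With the correction for GC content and length it was 0.0037 over 169 pairs. When siAARS1 replicate 2 was left out, the pairs called in the same direction numbered 26.

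The use of strand in counting was not given in the sources used here. The annotated exons of the 2 genes overlapped in 114 of the 171 pairs, and there reads of antisense and sense RNA cannot be told apart if strand was not used. By GENCODE v29, 87 pairs were head to head, meaning on opposite strands with starts within 1000 bases, and 79 overlapped in another way. Of the 87, the antisense start lay upstream of the sense start in 37 and downstream of it in 50. Exons overlapped in 46 of the 87. In head to head pairs both rows were called in 37, in the same direction in 22 and in opposite directions in 15, of which 14 had the antisense RNA lower. In the 79 other overlapping pairs both were called in 29, in the same direction in 17 and in opposite directions in 12. The rank correlation over head to head pairs was 0.13, again as a description.

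**Figure D3:**
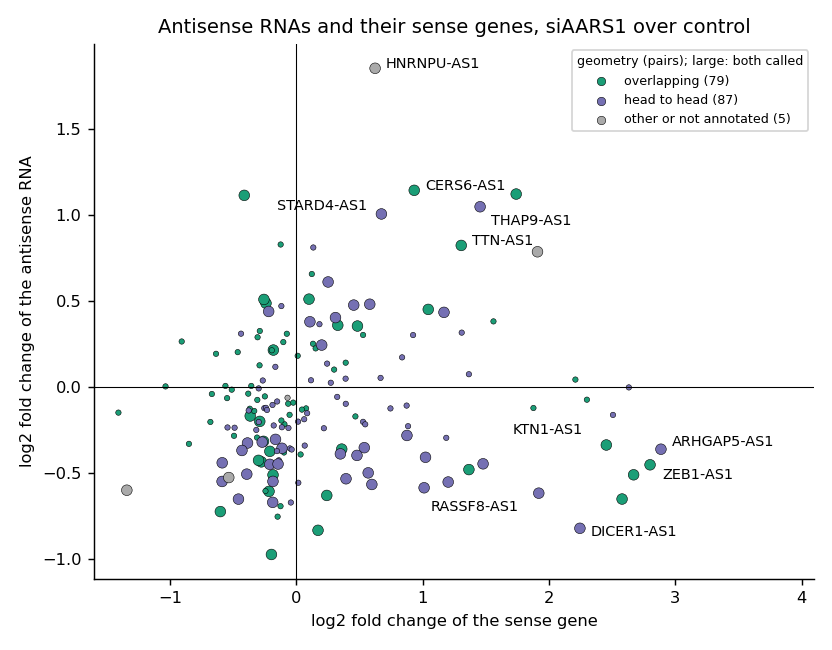
Log2 fold change of each antisense RNA against that of its sense gene (siAARS1 over control, log2(CPM + 1) scale) for 171 pairs, coloured by geometry, with large points where both were called. Of the 70 large points, 43 lie where the signs match and 27 where they differ, 22 of them at the lower right.

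Of the 169 sense genes tested, 26 rose at least 2-fold, beside 1509 of all 14199 genes, and 27 antisense or intronic members carried their names. Of these 27 members 6 rose (22.2%, beside 32.6% of all genes), 12 fell (44.4%, beside 38.0%) and 9 did not pass the test. In all 171 pairs, 30 antisense rows rose and 57 fell. The median log2 fold change of the 27 was -0.16, beside -0.14 for the antisense rows of all 171 pairs. The sense rows, which were chosen for a rise, had a median of 1.74. UBA6-AS1 gave an example without a call, with 9.36 and 9.68 CPM in controls and 9.71 and 9.30 CPM after siAARS1, while UBA6, a ubiquitin-activating enzyme, had a log2 fold change of 2.63. The 6 that rose included TTN-AS1, THAP9-AS1 and SLC7A11-AS1, the last of which runs against the gene of the cystine transporter and went from 0.704 and 0.441 CPM to 2.14 and 2.71 CPM. SLC7A11-AS1 was below the filter in both controls, so it could be tested only as a rise.

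In the pairs furthest apart, the antisense RNA fell while the sense gene rose several-fold. ZEB1-AS1 had 9.03 and 7.69 CPM in controls and 5.76 and 5.90 CPM after siAARS1 (log2 fold change -0.45 ± 0.11, SE; limma adjusted p = 0.0015). ZEB1, a transcription factor of epithelial-mesenchymal transition, went from 6.16 and 6.84 CPM to 50.0 and 52.3 CPM (2.80 ± 0.08). In controls the antisense RNA was thus the higher of the pair in both libraries, and after siAARS1 it was far below the sense gene in both.

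ARHGAP5-AS1 had 4.60 and 3.37 CPM in controls and 2.91 and 2.80 CPM after siAARS1 (log2 fold change -0.36 ± 0.14, SE; limma adjusted p = 0.031), while ARHGAP5 went from 8.51 and 10.3 CPM to 72.6 and 78.5 CPM (2.89 ± 0.08). KTN1-AS1 went from 5.07 and 5.04 CPM to 3.50 and 4.12 CPM (-0.34 ± 0.13), while KTN1, a receptor for kinesin, went from 22.3 and 22.0 CPM to 120 and 131 CPM (2.45 ± 0.06). Both antisense falls were small beside the rises of their sense genes. With the correction for GC content and length they were -0.32 and -0.28 (limma adjusted p = 0.055 and 0.054), and with the replicate block added to it the first was called again (0.040). ARHGAP5-AS1 was -0.18 without control replicate 1 and -0.54 without control replicate 2, and its call was lost without control replicate 1 or either siAARS1 library. KTN1-AS1 lost its call without either control library or without siAARS1 replicate 1, with values from -0.24 to -0.34. Both also lost it with DESeq2. RASSF8-AS1 fell from 6.83 and 6.12 CPM to 4.02 and 3.73 CPM (-0.62 ± 0.12), while RASSF8, a Ras-association protein of cell junctions, rose from 4.84 and 4.29 CPM to 18.7 and 21.4 CPM (1.92 ± 0.10). All 5 sense genes of these pairs, DICER1 included, remained higher with the correction, with log2 fold changes from 0.72 to 1.62.

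**Figure D4:**
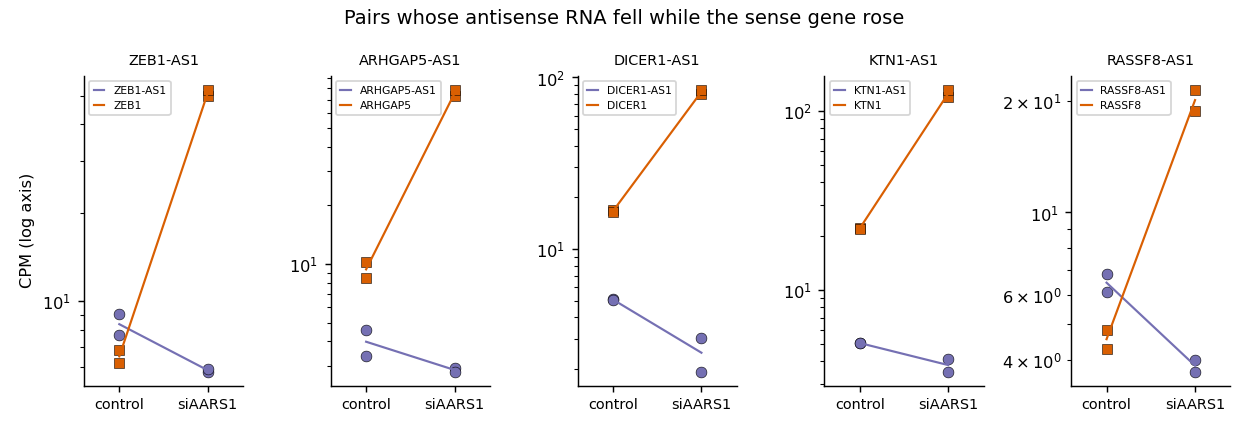
CPM on log axes of the antisense RNA (circles) and the sense gene (squares) in the 2 control and 2 siAARS1 libraries of 5 pairs, with lines joining group means. In every panel the sense gene rises and the antisense RNA falls, as in ZEB1, from 6.16 and 6.84 to 50.0 and 52.3 CPM, and ZEB1-AS1, from 9.03 and 7.69 to 5.76 and 5.90 CPM.

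DICER1-AS1 and DICER1 were such a pair at a shared start region. DICER1, the enzyme that cuts precursors into mature microRNAs, rose from 16.8 and 16.5 CPM to 80.4 and 84.6 CPM (log2 fold change 2.24 ± 0.06, SE), while DICER1-AS1 fell as given above. By their RefSeq starts HOXA11-AS and HOXA11 also diverge, and both fell. HOXA11-AS went from 17.0 and 15.9 CPM to 9.65 and 10.6 CPM (-0.65 ± 0.09) and HOXA11 from 42.0 and 40.6 CPM to 28.9 and 30.8 CPM (-0.46 ± 0.06), with every siAARS1 value below both controls in each gene. With the correction for GC content and length the values were -0.32 and -0.17. The RefSeq windows of both antisense RNAs are shown to set a pair that moved apart beside one that moved together, with capitals from the start of the sense gene to the start of the antisense RNA. The starts lay 159 bases apart for DICER1-AS1 (chr14:95157438-95157737, plus strand) and 176 bases apart for HOXA11-AS (chr7:27185158-27185457, plus strand). In both, transcription of the sense gene runs to the left from the first capital. GENCODE v29 places the start of HOXA11-AS elsewhere, at 27184507. That is left of both RefSeq starts, on the side to which HOXA11 runs. The windows differed in base composition, with 75.0% GC and 38 CG dinucleotides in the first and 52.7% GC and 12 CG dinucleotides in the second. Neither held GGAATG or CATTCC.
DICER1-AS1: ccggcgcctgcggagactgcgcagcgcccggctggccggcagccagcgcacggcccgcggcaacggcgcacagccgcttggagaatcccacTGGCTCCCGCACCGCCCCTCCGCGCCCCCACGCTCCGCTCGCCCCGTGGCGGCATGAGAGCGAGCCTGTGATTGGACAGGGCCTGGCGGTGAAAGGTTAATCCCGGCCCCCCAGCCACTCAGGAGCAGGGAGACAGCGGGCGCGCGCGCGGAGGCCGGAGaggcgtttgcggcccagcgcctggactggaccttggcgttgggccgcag
HOXA11-AS: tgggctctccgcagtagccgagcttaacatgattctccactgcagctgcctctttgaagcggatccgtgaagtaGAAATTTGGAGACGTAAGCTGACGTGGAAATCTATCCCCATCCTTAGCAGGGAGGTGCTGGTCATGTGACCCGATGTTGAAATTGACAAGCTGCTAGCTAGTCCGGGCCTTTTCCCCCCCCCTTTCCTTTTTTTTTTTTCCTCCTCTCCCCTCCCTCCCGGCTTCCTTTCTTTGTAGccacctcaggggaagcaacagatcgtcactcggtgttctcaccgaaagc

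In the 5 same-direction pairs chosen by rule both rows rose, although both rows fell in 25 of the 43 such pairs. CERS6-AS1 rose as given above, and CERS6 went from 33.2 and 37.0 CPM to 67.2 and 68.6 CPM (log2 fold change 0.93 ± 0.06, SE). Their annotated exons overlapped over 2999 bases. TTN-AS1 rose from 4.75 and 4.67 CPM to 8.94 and 9.27 CPM (0.82 ± 0.11) and TTN, the muscle protein titin, from 3.23 and 3.15 CPM to 9.33 and 9.39 CPM (1.31 ± 0.12), with an overlap of 11381 bases. In both pairs the antisense rise was the one that remained called with the correction for GC content and length (0.69 and 0.61), while the sense value went to 0.040 and -0.028. THAP9 rose from 0.763 and 0.693 CPM to 3.43 and 4.06 CPM (1.45 ± 0.15) beside THAP9-AS1, with 199 bases shared. In controls THAP9 was below the filter, which it passed only through the siAARS1 group. STARD4 rose from 20.1 and 18.7 CPM to 28.9 and 34.4 CPM (0.67 ± 0.08) and HNRNPU from 852 and 839 CPM to 1299 and 1309 CPM (0.62 ± 0.03). With the correction these 2 sense values turned, to -0.52 and -0.93.

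In 5 pairs the antisense RNA rose while the sense gene fell, and SH3BP5-AS1 had the largest rise of these. SH3BP5, a regulator of the GTPase RAB11, had a log2 fold change of -0.41 beside 1.11 for its antisense RNA, with 1975 bases of shared exon. RPA3-AS1 rose by 0.49 while RPA3, a subunit of the single-strand DNA-binding protein RPA, had -0.24. RPA3-AS1 is now UMAD1, the name of a protein-coding gene. By the annotation all 5 pairs lie on opposite strands, 1 head to head and 4 overlapping in another way. The other pairs were ZNRD1-AS1 (0.51 beside -0.26), FBXL19-AS1 (0.44 beside -0.22) and PCBP1-AS1 (0.21 beside -0.18).

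Among long noncoding RNAs with a described role, falls outnumbered rises, as they did among all genes. Of a list of 27 such genes, 20 were in the table, 5 of them under older symbols, of which 4 carry clone names and so are not among the 267 members. Of the 20 tested, 14 changed (70.0%, beside 70.7% of all genes), with 4 higher and 10 lower, and the median log2 fold change was -0.36, beside -0.05 for all genes. Those that rose were LINC00657, OIP5-AS1, SETD5-AS1 and PSMA3-AS1, the last listed under a clone name. SETD5-AS1, now THUMPD3-AS1, went from 9.36 and 10.5 CPM to 15.9 and 15.4 CPM (0.61 ± 0.09, SE), or 0.37 with the correction for GC content and length.

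LINC00662 fell from 30.4 and 28.7 CPM to 16.9 and 19.7 CPM (log2 fold change -0.67 ± 0.08, SE) and LOXL1-AS1, beside the gene of a lysyl oxidase that cross-links elastin, from 28.7 and 30.3 CPM to 19.0 and 19.1 CPM (-0.61 ± 0.07). LINC00152, or CYTOR, named for a role in the cytoskeleton, fell from 10.3 and 9.05 CPM to 6.70 and 6.41 CPM (-0.49 ± 0.11), and LINC00467 from 4.31 and 4.16 CPM to 2.79 and 2.02 CPM (-0.63 ± 0.14). These 4 genes remained lower with the correction for GC content and length, at -1.34, -0.60, -1.29 and -0.97. FOXD2-AS1 had 5.95 and 5.36 CPM in controls and 3.40 and 3.85 CPM after siAARS1 (-0.53 ± 0.13), TMPO-AS1 7.07 and 7.28 against 5.21 and 5.20 CPM (-0.40 ± 0.11), and MAPKAPK5-AS1 15.6 and 17.9 against 13.4 and 12.3 CPM (-0.36 ± 0.09). Of the last 3, TMPO-AS1 was -0.26 with the correction, and FOXD2-AS1 and MAPKAPK5-AS1 lost the call with it, at limma adjusted p = 0.092 and 0.61. TMPO, the lamina-associated gene beside TMPO-AS1, rose at the same time, from 143 and 153 CPM to 198 and 216 CPM. WT1-AS and KDM4A-AS1 did not pass the test, with log2 fold changes of -0.19 and -0.16.

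Some members carry a noncoding name but are now known to encode a protein. GENCODE v29 gives 12 of the 267 as protein coding, of which 6 changed (50.0%, beside 70.7% of all genes), with 1 higher and 5 lower (41.7%, beside 38.0%). Of 5 LINC loci listed for their small proteins, 3 were in the table. LINC00493, which encodes the mitochondrial protein SMIM26, fell from 25.5 and 25.4 CPM to 20.5 and 21.7 CPM (log2 fold change -0.26 ± 0.07, SE; limma adjusted p = 0.0028). LINC00116, which encodes the mitochondrial protein mitoregulin (MTLN), fell from 12.1 and 12.0 CPM to 9.91 and 8.90 CPM (-0.33 ± 0.10; limma adjusted p = 0.0053). With the correction for GC content and length both calls were lost, at log2 fold changes of 0.013 and -0.13. Both were also lost with DESeq2, and that of LINC00116 without siAARS1 replicate 2 (-0.26). LINC00998, which encodes the membrane protein SMIM30, had 41.0 and 40.6 CPM in controls and 43.4 and 45.6 CPM after siAARS1 and did not pass the test (0.12, limma adjusted p = 0.057). It was called higher with the replicate block (adjusted p = 0.040 by limma), without siAARS1 replicate 1 and with edgeR and DESeq2. It was called lower with the correction (-0.13), and the value was -0.11 under median scaling.

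Factors that degrade noncoding RNA in the nucleus were measured in the same libraries. A list of 18 genes was drawn from the nuclear exosome and its cap-binding and adaptor complexes, with earlier results of these data known. Of the EXOSC genes it held only EXOSC2, EXOSC3 and EXOSC10, so it does not stand for the whole exosome. All 18 were tested and 16 rose (88.9%, beside 32.6% of all genes). The median GC content of the list was 41.8%, and of all genes from 41.1% to 46.0% GC 52.4% rose. At least a 2-fold rise was reached by 4 of the 18 (22.2%), beside 1509 of all 14199 genes. DIS3, a catalytic subunit of the exosome, went from 7.48 and 9.36 CPM to 50.6 and 57.9 CPM (log2 fold change 2.56 ± 0.09, SE). SKIV2L2, or MTREX, its RNA helicase, went from 20.6 and 22.4 CPM to 119 and 129 CPM (2.47 ± 0.06), and ZFC3H1, which links it to polyadenylated RNA, from 4.75 and 5.39 CPM to 24.5 and 29.9 CPM (2.21 ± 0.10). All 3 remained higher with the correction for GC content and length. EXOSC2 and ZC3H18 did not pass the test. The counts depended on scale, with 11 higher and 4 lower after the correction for GC content and length, and 8 higher and 3 lower under median scaling. At these settings 9146 of 13819 and 11417 of 14199 genes were called in either direction.

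Log2 fold change moved with transcript GC content, in the members as in all genes. The rank correlation was -0.41 over the 250 members with a GC value and -0.65 over all 13819 genes with one, both descriptions across genes that share the same 4 libraries. All genes were put in 5 bins of equal size by GC content. In the lowest bin, up to 41.1% GC, the median of the 24 members was 0.36, beside 0.75 for all genes there. In the next bin the median of the 60 members was 0.04, beside 0.22. In the 3 bins above 46.0% GC the members' medians were -0.20, -0.22 and -0.24, beside -0.11, -0.23 and -0.30 for all genes. The members' GC content as a whole was like that of all genes, with medians of 49.8% and 48.8%. The part of GC content in the changes was not tested. Of the 132 members called, 90 were also called with the correction for GC content and length, 85 of them in the same direction.

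**Figure D5:**
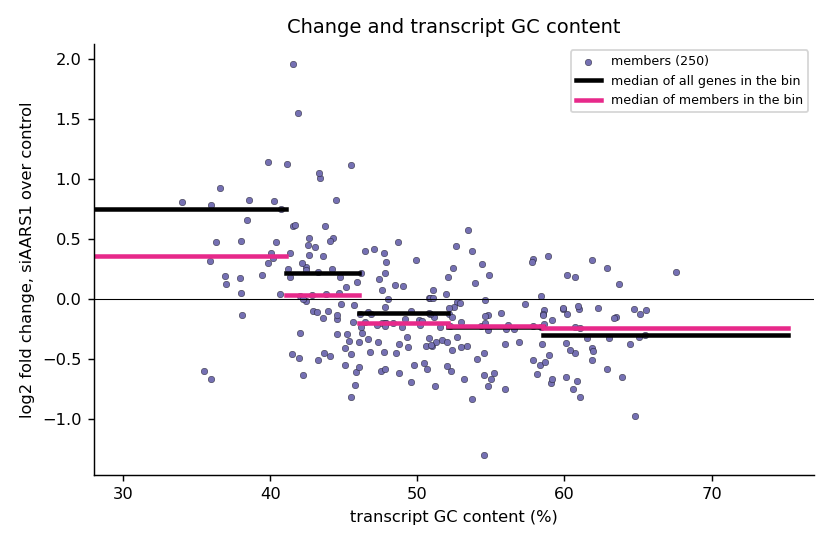
Log2 fold change (siAARS1 over control) against transcript GC content in percent for 250 members (points), with bars for the median of members (pink) and of all genes (black) in each of 5 bins of GC content. Medians of the members go from 0.36 in the lowest bin to -0.24 in the highest, and those of all genes from 0.75 to -0.30.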

How the data were processed

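The authors deposited 1 table of CPM values from RNA-seq of HGC27 cells, 2 libraries per group. Per the labels' processing notes, RSEM 1.3.3 and hg38 were used. The aligner, the gene annotation, the use of strand and the scaling behind CPM were not given in the sources used here. CPM does not correct for length or GC content. All values were whole multiples of 1 read (tolerance 0.1 read; 100% of values), so reads were recovered. The upper limit for a count of 0, taken as 3 reads, was 0.0880 to 0.0971 CPM, for counting error only. Replicates differed by more than sampling noise (chi-square per gene 3.63 and 3.62), and all 4 libraries were kept.

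Members and lists were chosen with earlier results of these data known. Groups came from sample titles. The test was limma 3.58.1 (eBayes with trend, R 4.3.3) on log2(CPM + 1), siAARS1 against control, for the 14199 genes whose mean reached 1 CPM in either group, with Benjamini-Hochberg adjusted p under 0.05 over all of them. No test of single genes is named in the study's text. Fold changes on this scale understate changes of low genes. SE is that of the fit. The scripts were tested on simulated data. Named members were the 8 largest rises and 8 largest falls among called genes (both siAARS1 libraries on 1 side of both controls, at least 3 CPM in the higher group), the 8 highest in mean CPM, 5 pairs of opposite and 5 of the same sign, members of the lists, and 3 decay factors. Others named were chosen after their values were seen: SOS1-IT1, CRHR1-IT1, UBA6-AS1, SLC7A11-AS1, the 5 pairs with the antisense RNA higher, and TMPO and HOXA11. Coordinates, exons, length and GC came from GENCODE v29 (GRCh38) by gene identifier, for 259 members. Of the members' identifiers, 258 were in the gene name table. The correction took out of each library a smooth trend of deviation on transcript GC content and length (mgcv 1.9.3), and with it any true change that follows them. Alternatives were other pseudocounts, filters and scalings, edgeR 4.0.16 and DESeq2 1.42.0 on recovered reads, a replicate block, and leaving out each library. Sequences came from RefSeq (GRCh38.p14).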

Additional observations from a re-analysis of the deposited data

How the results depend on the processing

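Depth limits low members, since 1 read was worth 0.0293 to 0.0324 CPM. Counts of members called at least 2-fold, 9 as reported, were 24 with a pseudocount of 0.1, 27 with edgeR (TMM or RLE), 25 with edgeR at 10 reads or more in every library and 22 with DESeq2. Members higher and lower (47 and 85) were 31 and 48 at a mean of 5 CPM or more, where fewer members were tested, and 25 and 135 under median scaling, with 48 lower by DESeq2, whose missing adjusted p-values were left out. Pairs called in the same direction (43) numbered 24 and in opposite directions (27) 17 at 5 CPM or more. Same-direction pairs were 28 after correction for GC content and length (28 too when the replicate block was added), 21 with DESeq2 and 27 at an adjusted p under 0.01. The members' median log2 fold change (-0.13) was -0.16 with a pseudocount of 0.1, -0.33 under median scaling, -0.20 under quantile normalization and -0.080 once GC content and length were corrected for, block or no block. Leaving out 1 library gave 30 to 37 members higher, 69 to 77 lower, 7 to 11 at least 2-fold, 26 to 34 same-direction and 19 to 24 opposite pairs, and medians from -0.15 to -0.11, with the lone library assumed to vary like the other group. The lowest counts of members higher (30) and same-direction pairs (26) came without siAARS1 replicate 2.

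Values of single genes that changed direction were LINC00665 (-0.13 under median scaling, -0.018 under quantile normalization), LINC00998 (-0.11, -0.028 and, with the GC content and length correction, -0.13), KDM4A-AS1 (-0.16 as reported, 0.083 without control replicate 1, 0.026 without siAARS1 replicate 2 and -0.40 without control replicate 2) and, with that correction, LINC00657 (-0.12), OIP5-AS1 (-0.73), MAGI2-AS3 (-0.75) and LINC00493 (0.013), each the same with the block. The cause was not tested.

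Replicate numbers were shared between groups. Library identifiers in the labels follow each other within a number, but no label states that a number marks a shared culture, day or batch, and with 2 pairs the correlation of deviations of same-numbered libraries was 0.118. The replicate block gave 50 members higher and 90 lower and the same median, -0.13. Among the genes named it changed the call of LINC00998, and beside the correction that of ARHGAP5-AS1 and the number of opposite pairs (31 without the block, 32 with it).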

Other observations

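The antisense RNAs of the 4 HOX clusters, grouped by symbol after their values were seen, had log2 fold changes below 0. Of 9 tested, 6 fell (66.7%, beside 38.0% of all genes, at a limma adjusted p under 0.05 over all genes). Their median GC content was 55.2%, and in the bin from 52.1% to 58.6% GC 60.6% of all genes fell. The 9 log2 fold changes spanned -1.30 to -0.08 with a median of -0.45, beside -0.05 for all genes. With the correction for GC content and length the median of the 9 was -0.31. Besides HOXA-AS2 and HOXA11-AS, the antisense RNA of HOXC13 (listed as HOXC-AS5) had 2.49 and 2.36 CPM in controls and 1.39 and 1.08 CPM after siAARS1, and HOXD-AS1, or HAGLR, had 1.26 and 1.54 against 0.389 and 0.842 CPM. HOXA-AS3 and HOXB-AS3 also fell, at log2 fold changes of -0.39 and -0.45, but neither passed with the correction for GC content and length, while HOXA-AS2, HOXA11-AS, HOXC-AS5 and HOXD-AS1 did. HOXD-AS1 and HOXB-AS3 were below 1 CPM in both siAARS1 libraries and passed the filter only through the controls. HOXD-AS2, the second most abundant of the group, had 10.6 and 11.5 against 10.6 and 9.45 CPM and did not pass the test. The homeobox genes of the clusters were measured beside them. Of the HOXA genes 7 of 11 fell (63.6%), of the HOXB genes 5 of 7 (71.4%) and of the HOXC genes 3 of 8 (37.5%, near the 38.0% of all genes), while the 8 HOXD genes had log2 fold changes from -0.23 to 0.18. The median GC contents of HOXA, HOXB and HOXC genes, 54.1%, 55.3% and 52.9%, lay in the bin given above. That of HOXD genes, 58.7%, lay just above it. The median log2 fold changes of HOXA and HOXB genes, -0.44 and -0.35, were -0.19 and -0.06 with the correction. Those of HOXC and HOXD genes turned from -0.15 and -0.08 to 0.09 and 0.23.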
